A study of Mus musculus with 48 samples.

Results

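The amygdala transcriptome of adult male mice carrying 1 inactive copy of Tph2 (Tph2+/-) was compared with that of their wildtype counterparts (Tph2+/+) from the same breeding, after both had been exposed to maternal separation (MS). The comparison used 8 Tph2+/- MS and 8 Tph2+/+ MS mice, 16 of the 48 mice in the series, chosen by the genotype and condition in the labels. All were males of 4 months, C57BL/6 by their labels, born to Tph2+/- parents that had been backcrossed to C57BL/6N, housed alone from weaning and put through behavioral tests before the tissue was taken. MS pups were kept from their dams for 3 h per day, from postnatal day 2 to 15. The mice of the same 2 genotypes without MS (C, 8 per group) and the Tph2-/- MS mice served for comparison. The mutation was present throughout life, so an adult difference cannot be told apart from one laid down in development. The labels name no litter, and p-values measure the spread between mice as they were sampled.

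Neurons of the raphe nuclei in the brainstem make serotonin (5-HT) from tryptophan, and the hydroxylation by TPH2, the product of Tph2, sets the pace of this. Their axons reach the amygdala. The amygdala receives 5-HT fibers but holds no 5-HT neurons, and takes part in fear, anxiety and social behavior. MS is a model of early-life adversity, and the question was whether partial loss of TPH2 goes with a different amygdala transcriptome in mice with this history. Tph2 itself had 0 counts in all 16 mice, where 3 counts would make 3.55 to 4.73 CPM (counts scaled to a common library size), so the RNA could not check the genotype. Cck, the precursor of the neuropeptide cholecystokinin, had a median of 1 count (0 to 5) in Tph2+/- MS and of 3 counts (1 to 5) in Tph2+/+ MS mice, too few to compare.

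Counts on genes, without the mitochondrial leucyl-tRNA synthetase gene Lars2 and the ribosomal RNA-like gene Gm42418, were 652314 to 845999 per library in Tph2+/- MS and 633893 to 772598 in Tph2+/+ MS. This was a small part of each library, as entries that were counted on no gene made a median of 97.8% of all entries. Of the 48440 genes of the table, 5643 had a mean of at least 10 counts over the 48 mice and were tested. Among those placed by the GENCODE annotation, 63.8% had exons on the strand opposite to exons of another gene, against 11.5% of the genes with fewer counts. Abundant mRNAs of brain were close to 0, with 1 to 15 counts per library for Actb (beta-actin) and 2 to 12 for Snap25, a synaptic SNARE protein. The library kit keeps the strand, but the strand setting of the counting was not given in the sources used here. Therefore a count on one gene cannot be told apart from RNA of the gene on the other strand, and the gene with exons on the other strand is named for the genes described below. In a homogenate, fewer cells of a type and less RNA per cell cannot be told apart either.

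Differentially expressed genes (DEGs) were those with an unadjusted p under 0.01 whose lg2FC, the log2 ratio of Tph2+/- MS over Tph2+/+ MS, exceeded 0.2 in size. There were 72 DEGs, 1.28% of the genes tested, of which 32 (0.567%) had a higher and 40 (0.709%) a lower level in Tph2+/- MS mice. No gene (0%) passed an adjusted p of 0.05 in edgeR's quasi-likelihood test with Benjamini-Hochberg adjustment, where 316 genes had an unadjusted p below 0.05 and the smallest adjusted p was 0.678. DESeq2 also gave 0 adjusted calls, with 62 DEGs and 284 genes at an unadjusted p below 0.05. When all 32233 genes with a count entered the edgeR fit, there were 417 DEGs and 57 adjusted calls, of which 13 were among the 72 DEGs, and the cause was not tested. A share of 0.01 of the genes tested would be 56 genes, and the DEGs named below had adjusted p between 0.678 and 0.760. In no gene (0%) were the levels of all 8 mice of one genotype above or below those of all 8 mice of the other. The DEGs had absolute lg2FC of 0.20 to 1.21 with a median of 0.52, and 2 of them differed by more than 1 on the log2 scale, as the plot of lg2FC by count shows. Counts were low, with a median of 25.7 per mouse over the 72 DEGs and of 33.2 over all genes tested.

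**Figure D1:**
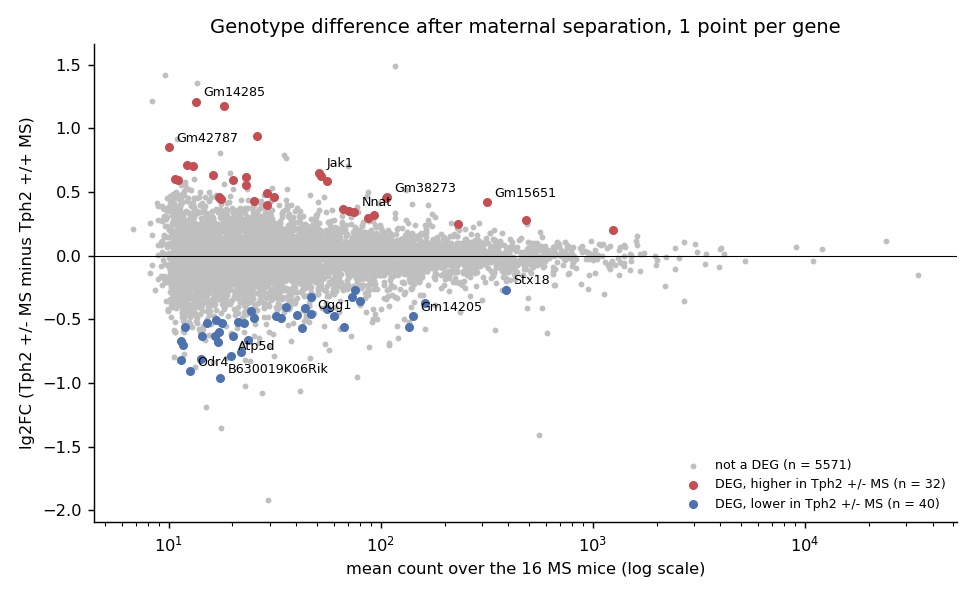
lg2FC of Tph2+/- MS over Tph2+/+ MS (y axis) against the mean count over the 16 mice (x axis, log scale), 1 point per gene tested. The 32 DEGs with a higher level (red) and the 40 with a lower level (blue) lie among other genes of similar lg2FC, and most have low counts.

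By annotated type, 28 of 3081 protein-coding genes (0.909%), 19 of 1180 antisense genes (1.61%) and 8 of 270 lincRNAs (2.96%) were DEGs. The higher and lower DEGs were divided as 12 and 16 among protein-coding genes, 7 and 12 among antisense genes and 4 and 4 among lincRNAs. Of 283 genes of the type TEC, provisional single-transcript models, 4 were DEGs (1.41%), all higher, and of 198 processed transcripts 4 were (2.02%), all lower, while 7 of 334 processed pseudogenes (2.1%) were DEGs, 4 higher and 3 lower. The share over all genes tested was 1.28%. Exons opposite to another gene were found in 49 of the 72 DEGs, 17 higher and 32 lower, and the genes with such exons had DEGs at 1.37% against 1.13% of the genes without.

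Because several DEGs overlap the coding part of a gene on the other strand, the reference sequence of 4 such overlaps is given from the GENCODE M21 transcripts (GRCm38). Each is read 5′ to 3′ on the strand of the second gene, and lies in its coding sequence, at chr2:158611394-158611453 on the plus strand for Slc32a1, and on the minus strand at chr2:131561657-131561716 for Adra1d, chr2:154547090-154547149 for Necab3 and chr11:85234775-85234809 for Appbp2. Capitals mark a start codon.
Slc32a1, within Gm14205: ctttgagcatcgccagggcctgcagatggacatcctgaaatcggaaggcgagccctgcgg
Adra1d, within Gm14285: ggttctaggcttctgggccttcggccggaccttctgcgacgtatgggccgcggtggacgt
Necab3, within 1700003F12Rik: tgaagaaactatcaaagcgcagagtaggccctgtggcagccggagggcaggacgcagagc
Appbp2, within Appbp2os: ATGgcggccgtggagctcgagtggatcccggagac

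Inside Cacnb2, 3 rows were DEGs with a higher level in Tph2+/- MS mice. Cacnb2 encodes the beta 2 subunit of voltage-gated calcium channels, which brings the pore to the membrane, and runs on the plus strand at chr2:14603088-14987908. Gm38273, a TEC of a single exon at chr2:14735546-14737927 on the minus strand, had 132 CPM in the lowest, 172 in the median and 276 in the highest Tph2+/- MS mouse, against 107, 138 and 164 CPM in Tph2+/+ MS. In 4 of 8 Tph2+/- MS mice it was above every Tph2+/+ MS mouse (lg2FC 0.46, SE 0.12). Gm13269, antisense to Cacnb2 with 239 of its 787 exonic bases on exons of it, had 128, 159 and 176 CPM against 104, 122 and 159 CPM (lg2FC 0.32, SE 0.10). Gm13268, a processed pseudogene, had 27.6, 35.8 and 67.8 CPM against 18.7, 28.6 and 34.0 CPM (lg2FC 0.62, SE 0.21). Gm38273 and Gm13269 lie 2445 bases apart, while Gm13268 lies 108225 bases from Gm38273 with rows between them that were no DEGs. Gm13268 was singled out for its position after its values were seen, as were the rows that follow.

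In all, 8 minus-strand rows inside Cacnb2 were tested, and each had a positive lg2FC, between 0.08 and 0.62 with a median of 0.31, where 48.1% of all genes tested had one. Of these, 5 had an unadjusted p below 0.05, as had 5.6% of all genes tested, but Cacnb2 was looked at because it held DEGs, so the count is a description. Beside the 3 DEGs these were Gm13314 (lg2FC 0.43, SE 0.19) and Gm10848 (lg2FC 0.22, SE 0.10). Under control rearing the same rows had a median lg2FC of -0.10, and 3 of 8 were positive. Cacnb2 itself had 8.19 to 23.4 CPM in Tph2+/- MS and 8.36 to 20.3 CPM in Tph2+/+ MS mice, which overlapped (lg2FC 0.19, SE 0.22, adjusted p = 0.973 in edgeR). The rows lie in 1 gene and are not independent of each other.

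The largest lg2FC among the DEGs was that of Gm14285 (chr2:131561614-131563179, plus strand). It overlaps the coding sequence of Adra1d, the alpha 1D receptor for noradrenaline, over 147 bases. Its level was 5.91, 30.5 and 46.2 CPM (lowest, median and highest mouse) in Tph2+/- MS and 2.79, 13.5 and 18.1 CPM in Tph2+/+ MS. It was above every Tph2+/+ MS mouse in 6 of 8 Tph2+/- MS mice, while the other 2 were not above the Tph2+/+ MS median (lg2FC 1.21, SE 0.33). The mean count of 13.5 per mouse is small, and Adra1d itself had 71 counts in all 8 Tph2+/- MS and 33 in all 8 Tph2+/+ MS mice.

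Gm14205, at chr2:158610910-158611820 on the minus strand, lies on exons of Slc32a1 with 697 of its 739 exonic bases. Slc32a1 encodes the vesicular GABA transporter, which loads GABA and glycine into synaptic vesicles of inhibitory neurons. Gm14205 had 123, 158 and 276 CPM in Tph2+/- MS and 158, 230 and 419 CPM in Tph2+/+ MS, and was below every Tph2+/+ MS mouse in 4 of 8 Tph2+/- MS mice (lg2FC -0.48, SE 0.16). This call rests on single mice, as it was kept in 9 of the 16 fits that left out 1 mouse. The lg2FC was -0.32 without Tph2+/+ MS mouse 8, where it was lost, and -0.61 without Tph2+/- MS mouse 8. The other measured rows of the inhibitory neuron markers were no DEGs, with lg2FC of 0.12 (SE 0.09) for the forebrain interneuron factor Dlx1 and -0.10 (SE 0.10) for Dlx1as, and Slc32a1 had 13 and 16 counts in all.

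Gm15651 (chr16:22548553-22551149) lies opposite to Dgkg, a diacylglycerol kinase that ends diacylglycerol signals, and had 365, 548 and 692 CPM in Tph2+/- MS against 351, 376 and 479 CPM in Tph2+/+ MS. In 6 of 8 Tph2+/- MS mice it was above all Tph2+/+ MS mice (lg2FC 0.42, SE 0.12). The row 1700003F12Rik, which overlaps the coding sequence of the neuronal calcium-binding protein gene Necab3 over 71 bases, was lower. It had 56.1, 70.7 and 99.6 CPM against 63.2, 103 and 128 CPM (lg2FC -0.47, SE 0.14).

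Of the protein-coding genes, Jak1, the tyrosine kinase behind interferon and interleukin receptors, was higher in Tph2+/- MS (chr4:101152367-101265282). Its level was 54.1, 94.8 and 147 CPM against 38.7, 61.1 and 78.1 CPM, and 5 of 8 Tph2+/- MS mice were above all Tph2+/+ MS mice (lg2FC 0.65, SE 0.19). Tph2+/- MS mice 1, 3, 4 and 6 were among these, as they were for Gm14285, Gm15651 and Gm38273. In each of these rows Tph2+/- MS mice 2 and 7 lay within the Tph2+/+ MS range. The counts of mice beyond a range are thus not independent between rows, and the cause of this split was not tested. Jak1 shares 4 of its 7227 exonic bases with Raver2 on the other strand, and so small an overlap does not show from which strand its counts came. Epha1, a receptor tyrosine kinase for ephrins opposite to the adhesion gene Zyx over 236 bases, had 31.2, 42.5 and 47.5 CPM against 23.4, 24.3 and 44.8 CPM (lg2FC 0.56, SE 0.16). All Tph2+/+ MS mice but mouse 3 were below the lowest Tph2+/- MS mouse.

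Nnat (chr2:157560078-157562522) encodes neuronatin, a small membrane protein of the endoplasmic reticulum that is expressed from the paternal allele. It lies within an intron of Blcap on the other strand and shares 87 bases with Gm23134, annotated as a miRNA. It had 106, 128 and 134 CPM in Tph2+/- MS and 73.2, 99.0 and 123 CPM in Tph2+/+ MS, with 6 of 8 Tph2+/- MS mice above and 6 of 8 Tph2+/+ MS mice below the range of the other genotype (lg2FC 0.35, SE 0.11). It was the only DEG among 9 measured imprinted genes (11.1%, against 1.28% of all genes tested), and 0 of 19 rows opposite to an imprinted gene were DEGs. The median lg2FC of the 9 genes was 0.02 beside -0.01 over all genes tested. Nespas, the antisense RNA of the imprinted Gnas locus with 988 bases on exons of the other strand, had a median of 28.6 CPM against 54.2 CPM and was no DEG (lg2FC -0.60, SE 0.28, adjusted p = 0.844 in edgeR).

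Rsbn1l had 108, 146 and 159 CPM against 99.1, 119 and 130 CPM (lg2FC 0.29, SE 0.09) and shares 5142 of 12676 exonic bases with the antisense gene A630072M18Rik. The other named DEGs with a higher level were rows of little-known function. Gm12123, a processed pseudogene inside the axon guidance gene Slit3, had an lg2FC of 0.63 (SE 0.17). Gm11655, inside the protein kinase C gene Prkca, had an lg2FC of 0.59 (SE 0.17). Gm42787, a lincRNA inside Hmgb1 and opposite to the lincRNA Mm2pr, had an lg2FC of 0.85 (SE 0.26). In Gm12123 the lowest Tph2+/- MS mouse, with 40.9 CPM, lay within the Tph2+/+ MS range of 38.3 to 79.3 CPM, and the groups overlapped in the other rows too.

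**Figure D2:**
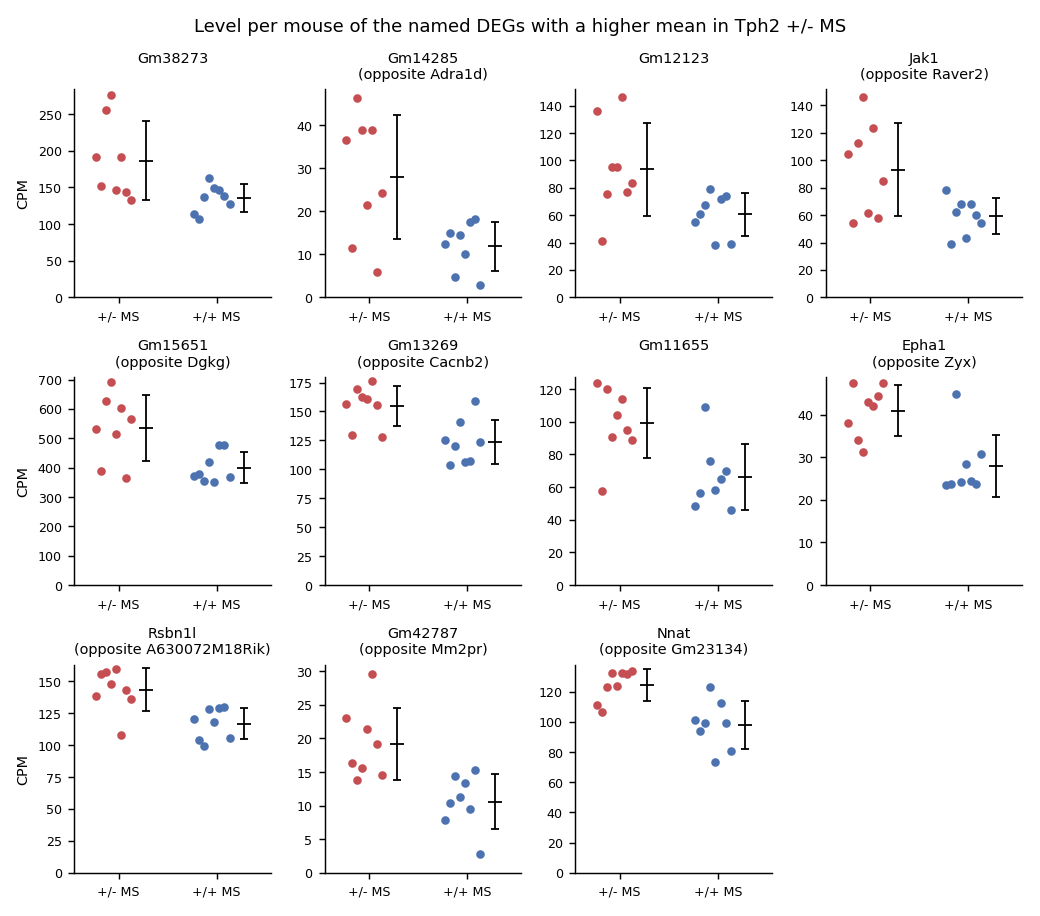
CPM of each mouse (y axis, from 0) for the 11 named DEGs with a higher level in Tph2+/- MS (red, 8 mice) than in Tph2+/+ MS (blue, 8 mice). Black bars are mean and SD, and the mice of both genotypes overlap in every panel.

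Among the DEGs with a lower level, Atp5d had the smallest unadjusted p. It encodes the delta subunit of mitochondrial ATP synthase (chr10:80138632-80145818) and shares 68 exonic bases with Cbarp, a regulator of calcium channel beta subunits on the other strand. Its level was 10.9, 20.01 and 32.8 CPM in Tph2+/- MS and 18.3, 36.2 and 50.6 CPM in Tph2+/+ MS, and 5 of 8 Tph2+/+ MS mice were above all Tph2+/- MS mice (lg2FC -0.79, SE 0.21). On the same chromosome, 0 of the 19 genes tested within 10 megabases of Tph2 were DEGs, and so few genes cannot tell this from the 1.28% of all genes.

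Ogg1 encodes the glycosylase that removes 8-oxoguanine from oxidized DNA (chr6:113326972-113335068), and shares 232 bases with Camk1, a calcium/calmodulin-dependent protein kinase. It had 42.1, 55.9 and 72.5 CPM in Tph2+/- MS and 51.8, 85.7 and 93.7 CPM in Tph2+/+ MS, with 6 of 8 Tph2+/+ MS mice above all Tph2+/- MS mice (lg2FC -0.46, SE 0.13). Stx18, a syntaxin for transport to the endoplasmic reticulum, differed little but on high counts, with 430, 529 and 598 CPM against 521, 614 and 794 CPM (lg2FC -0.27, SE 0.08). Stx18 lies opposite to exons of the TEC gene Gm42858, over 908 bases, and of Nsg1.

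B630019K06Rik, on chromosome X, had 12.5, 15.1 and 34.0 CPM against 15.99, 33.4 and 51.6 CPM (lg2FC -0.96, SE 0.27). Its highest Tph2+/- MS value was that of mouse 8, and 5 of 8 Tph2+/- MS mice were below all Tph2+/+ MS mice. Odr4, a protein of the endoplasmic reticulum for receptor transport, overlaps the nuclear pore gene Tpr and had 8.19, 12.2 and 20.4 CPM against 8.09, 24.04 and 43.2 CPM (lg2FC -0.91, SE 0.30). All Tph2+/- MS mice lay within the Tph2+/+ MS range, and 6 of 8 Tph2+/+ MS mice were above the highest Tph2+/- MS mouse.

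Appbp2os overlaps Appbp2, which encodes a protein binding the amyloid precursor protein, over 356 bases that include its start codon. It had 65.9, 73.2 and 113 CPM against 73.2, 114 and 184 CPM (lg2FC -0.56, SE 0.17). 2610206C17Rik, opposite to Zfand6, had 6.55, 15.7 and 21.6 CPM against 11.2, 25.6 and 46.0 CPM (lg2FC -0.81, SE 0.25). Gm19719, opposite to the leukotriene synthesis gene Alox5ap, had an lg2FC of -0.49 (SE 0.16), and the lincRNA 4930583P06Rik, inside the semaphorin gene Sema6d, one of -0.76 (SE 0.23). All 8 Tph2+/- MS mice were below the Tph2+/+ MS median for Appbp2os and 2610206C17Rik, and 7 of 8 for Gm19719 and 4930583P06Rik.

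**Figure D3:**
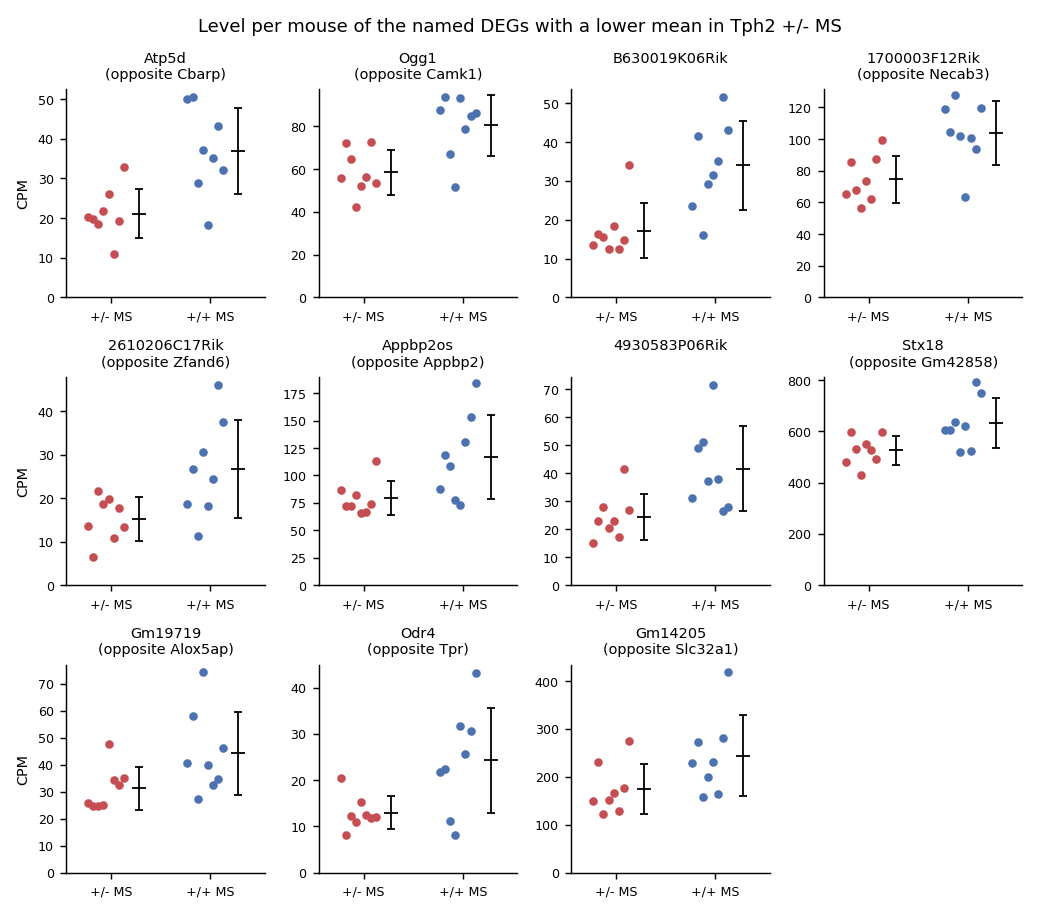
CPM of each mouse (y axis, from 0) for the 11 named DEGs with a lower level in Tph2+/- MS (red, 8 mice) than in Tph2+/+ MS (blue, 8 mice). Black bars are mean and SD, and in Odr4 the Tph2+/- MS mice all lie inside the Tph2+/+ MS range.

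The other 50 DEGs, 21 higher and 29 lower, had absolute lg2FC of 0.20 to 1.18, and the following were picked from them for their annotated role after their values were seen. Srd5a1 encodes the steroid 5-alpha-reductase of neurosteroid synthesis, has no exon on an exon of the other strand but lies inside Nsun2 there and shares 476 bases with Gm17108 on its own strand. It had 21.3, 37.96 and 50.2 CPM in Tph2+/- MS against 9.37, 26.8 and 30.7 CPM in Tph2+/+ MS (lg2FC 0.60, SE 0.22). Pde1b, a calmodulin-dependent phosphodiesterase that breaks down cyclic nucleotides, has no opposite exon and had 12.5, 25.5 and 43.7 CPM against 15.3, 17.9 and 28.1 CPM (lg2FC 0.64, SE 0.22). In Srd5a1 5 of 8 and in Pde1b 3 of 8 Tph2+/- MS mice were above all Tph2+/+ MS mice.

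Ciita, the master regulator of MHC class II genes, was higher with an lg2FC of 0.37 (SE 0.12) and shares 329 bases with Dexi. Gm37435, opposite to the sodium/proton exchanger gene Slc9a4, had 10.4, 28.6 and 79.5 CPM against 5.57, 16.2 and 26.5 CPM (lg2FC 1.18, SE 0.37). Aph1a, a subunit of gamma-secretase that shares 445 bases with the carbonic anhydrase gene Car14, had an lg2FC of 0.94 (SE 0.34), which was a DEG in 5 of the 16 fits that left out 1 mouse. Lower levels were found for Gm37035, opposite to the purinergic receptor gene P2ry1 over 992 bases (lg2FC -0.66, SE 0.23), and for C530025M09Rik, opposite to Syndig1, a regulator of AMPA receptor content at synapses (lg2FC -0.48, SE 0.17). Micu3, a subunit of the mitochondrial calcium uniporter complex that is opposite to Fgf20 over 202 bases and to Mir7666, had an lg2FC of -0.49 (SE 0.18). Gabpb1, a subunit of a transcription factor of nuclear genes for mitochondria that shares 14 bases with Gm27003, had 25.5, 30.1 and 40.6 CPM against 34.9, 42.4 and 46.4 CPM (lg2FC -0.44, SE 0.16), with 7 of 8 Tph2+/- MS mice below all Tph2+/+ MS mice. The 16 fits that left out 1 mouse kept Micu3 in 6, Gm37035 and Gabpb1 in 8 and C530025M09Rik in 9. They kept Ciita in 14 and Gm37435 in 15.

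Gene lists for the pathways in question held few measured rows. Over 10 pathway lists, 109 rows of list genes or of genes opposite to them were tested, and 1, Nnat, was a DEG (0.917%, against 1.28% of all genes tested), while 7 had an unadjusted p below 0.05 (6.42% against 5.6%), shares near those of all genes. For 5-HT, 3 of 26 list genes were tested and 0 were DEGs in either direction. These were the vesicular monoamine transporter Slc18a2, with a median of 241 CPM in Tph2+/- MS and 252 CPM in Tph2+/+ MS (lg2FC -0.08, SE 0.17, opposite to Gm29261), and the 5-HT receptors Htr2b (lg2FC 0.06, SE 0.09, opposite to the proteasome gene Psmd1) and Htr1b (lg2FC -0.19, SE 0.14). The row opposite to Htr1b, D430036J16Rik, had an lg2FC of -0.17 (SE 0.14), and that opposite to Qdpr, which recycles the cofactor of TPH2, one of -0.06 (SE 0.08).

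Of the stress hormone genes, the mineralocorticoid receptor Nr3c2 alone was tested (1 of 26), with medians of 31.5 and 31.97 CPM (lg2FC 0.09, SE 0.22, opposite to Gm10649). Of the immediate early genes, Junb, opposite to Prdx2, had 447 and 455 CPM (lg2FC 0.01, SE 0.08) and the row opposite to Bdnf, Gm45346, had 48.8 and 46.4 CPM. Of the neuropeptide precursors, Vgf (lg2FC -0.26, SE 0.15) and Scg2 (lg2FC -0.29, SE 0.37) were tested and were no DEGs. A830012C17Rik, opposite to the enkephalin gene Penk, had 102, 158 and 409 CPM in Tph2+/- MS and 206, 257 and 535 CPM in Tph2+/+ MS (lg2FC -0.57, SE 0.26, adjusted p = 0.828 in edgeR), and was no DEG.

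Among 12 glutamate and GABA receptor subunits tested and 11 rows opposite to one, 0 were DEGs, and 3 of the latter had an unadjusted p below 0.05 (5.6% over all genes tested), in both directions, with lg2FC of 0.23 for Gm9962 (opposite Gabra5), 0.22 for Gm22892 (opposite Grin2b) and -0.21 for Gm20387 (opposite Grm7). The lists for synaptic vesicles (7 rows and 10 opposite rows), forebrain transcription factors (6 and 8) and DNA methylation enzymes (3 and 5) held 0 DEGs. Of 37 mitochondrial genes 15 were tested and 0 of these were DEGs, and mt-Rnr1 came closest (lg2FC -0.80, SE 0.30, adjusted p = 0.760 in edgeR). The mRNAs mt-Co2, mt-Atp6 and mt-Co3 had means of 0.0625, 0.0625 and 0.125 counts per mouse, against 2222.5 for the tRNA mt-Ts1. With such rows and an unknown strand setting, the absence of DEGs cannot be read as unchanged mitochondrial RNA.

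The tissue markers had low counts, as did most mRNAs, and of 8 amygdala markers only Lmo3 was tested, with 10.7 to 27.7 CPM in Tph2+/- MS and 17.6 to 29.7 CPM in Tph2+/+ MS. The label could therefore be checked in small part. Markers of choroid plexus, a tissue that can be taken along in dissection, varied widely between mice on the opposite strand and less in their own rows. Their opposite-strand rows summed to 27.3 to 579 CPM in Tph2+/- MS and 27.2 to 315 CPM in Tph2+/+ MS, mainly Gigyf2, opposite to Kcnj13 (lg2FC 1.49, SE 0.62, adjusted p = 0.795 in edgeR), while the markers' own rows summed to 74.5 to 166 and 87.4 to 158 CPM, with Folr1, Aqp1 and Otx2 at 0. For striatum the opposite rows summed to 376 to 718 and 445 to 881 CPM, and for inhibitory neurons to 298 to 423 and 345 to 538 CPM. The last sum holds the DEG Gm14205, and without it the medians were 192 CPM in Tph2+/- MS and 193 CPM in Tph2+/+ MS, while the own rows of the inhibitory markers had medians of 378 and 336 CPM. The defining markers Mag, Opalin, C1qb, Tmem119, Cldn5, Drd2, Oxt, Avp and the 4 globin genes were at 0 in all 16 mice. The part of such differences in dissection in the DEGs was not tested.

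The genotype comparison was repeated in mice reared without MS, which shares no mouse with the one above. There, 124 genes (2.2%) were DEGs, 101 with a higher and 23 with a lower level in Tph2+/- C mice. Of all genes tested, 0 passed the adjusted threshold, with 397 at an unadjusted p below 0.05 in edgeR. In Tph2+/+ C mouse 1 and Tph2+/- C mouse 2, Lars2 and Gm42418 made 93.3% and 92.7% of counts on genes, against 2.67% to 11.1% in the other control mice. Without these 2 libraries, an alternative chosen after the data were seen, 176 genes were DEGs, 106 of them among the 124, while the share of counts used as covariate gave 82 DEGs. Of the 72 DEGs after MS, 27 (37.5%) had an lg2FC of the same sign under control rearing, where 46.9% of all genes tested did, and 45 had the opposite sign. Only B230110C06Rik, opposite to Lrrc3b, was a DEG in the same direction in both, with an lg2FC of -0.67 (SE 0.25) after MS and of -0.69 (SE 0.25) under control rearing, where it was no DEG without the 2 libraries (lg2FC -0.69, SE 0.27). Appbp2os and 2610206C17Rik were DEGs in both with opposite signs. Appbp2os had a median of 97.6 CPM in Tph2+/- C and 71.4 CPM in Tph2+/+ C (lg2FC 0.57, SE 0.18), and 2610206C17Rik one of 25.2 and 17.03 CPM (lg2FC 0.78, SE 0.26). These 3 rows passed the thresholds in both, but not all stand out by position in the plot of both rearing conditions. There Odr4 (lg2FC -0.91 after MS and 0.60 under control rearing) lay further from 0 than Appbp2os.

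**Figure D4:**
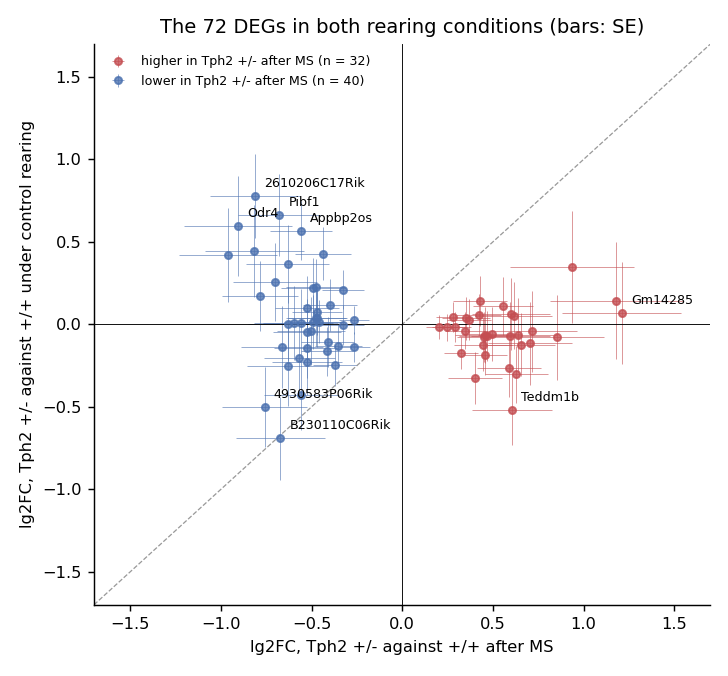
lg2FC of Tph2+/- over Tph2+/+ after MS (x axis) and under control rearing (y axis) for the 72 DEGs after MS, with bars of 1 SE and a dashed line of equality. The points were chosen on the x axis, most lie near 0 on the y axis, and B230110C06Rik lies close to the line.

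The difference between the 2 genotype comparisons was tested directly, as lg2FC after MS minus lg2FC under control rearing. It reached the DEG thresholds in 179 genes (3.17%), 26 with a positive and 153 with a negative value. In edgeR 0 of them had an adjusted p below 0.05, with 467 genes at an unadjusted p below 0.05 and a smallest adjusted p of 0.0799. DESeq2 gave 3 adjusted calls. Among the DEGs after MS, 21 of 72 had a unadjusted p below 0.01 for this difference and 27 of 72 had one above 0.05; since the MS comparison is a part of the difference, this is no separate evidence. The values were -1.13 (SE 0.25, adjusted p = 0.0799) for Appbp2os, -1.59 (SE 0.36, adjusted p = 0.0799) for 2610206C17Rik and 0.64 (SE 0.17, adjusted p = 0.0927) for Gm38273, all from edgeR. Without the 2 control libraries they were -1.21, -1.66 and 0.60, and 216 genes reached the thresholds, 0 of them after adjustment.

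Tph2-/- MS mice were set against the same Tph2+/+ MS mice, so that both comparisons share 8 controls and their likeness is no result. The lg2FC of Tph2-/- MS beside that of Tph2+/- MS was 1.12 and 1.21 for Gm14285, 0.63 and 0.65 for Jak1, 0.43 and 0.46 for Gm38273, and -0.51 and -0.48 for Gm14205. For Nnat it was 0.10 (SE 0.11) and 0.35, and for 1700003F12Rik -0.18 (SE 0.14) and -0.47.

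Tph2+/- MS mouse 8 stood apart from its group. Its median correlation over genes with the other libraries of its group was 0.928, against 0.957 to 0.964 for each of those, and it was the highest or lowest of the 8 in 48.9% of the genes tested, against 18.8% to 25.7% for each of the others. The first principal component of the 16 libraries, with 23.7% of the variance, separated this mouse and Tph2+/+ MS mice 7 and 8 from the rest, with scores of 31.4, 24.5 and 16.4 against -12.5 to 4.12. These were also the 3 libraries with the most entries counted as not unique, 15.1% to 16.1% against 10.8% to 13.6%. The 5 library measures compared between genotypes, depth among them, passed no two-sided exact permutation test (p of 0.350 to 0.890, adjusted 0.789 to 0.890). Without Tph2+/- MS mouse 8 there were 149 DEGs, 52 of them among the 72, and without the 3 libraries 61 DEGs, 37 of them among the 72. With the share of not unique entries as covariate there were 84 DEGs, 65 of them among the 72, and both alternatives were chosen after the data were seen. Without the 3 libraries 2610206C17Rik went from -0.81 to -0.48 and Appbp2os from -0.56 to -0.42 in lg2FC, and neither was a DEG, nor were Stx18, Nnat, Odr4, Gm14205, Gm13268, B230110C06Rik, Pde1b, Ciita, Aph1a, C530025M09Rik, Micu3 and Gabpb1. The lg2FC of some of these stayed close to that with all mice, at 0.62 for Gm13268 (0.62 with all mice), 0.93 for Aph1a (0.94) and -0.62 for B230110C06Rik (-0.67), in a fit with fewer mice. Of the 72 DEGs, 14 were called with each of the 16 mice left out in turn, and those named above were among them with the exceptions of 2610206C17Rik, Appbp2os, 4930583P06Rik, Stx18, Gm19719, Odr4, Nnat, Gm14205, Gm13268, B230110C06Rik and the DEGs chosen after their values were seen.

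**Figure D5:**
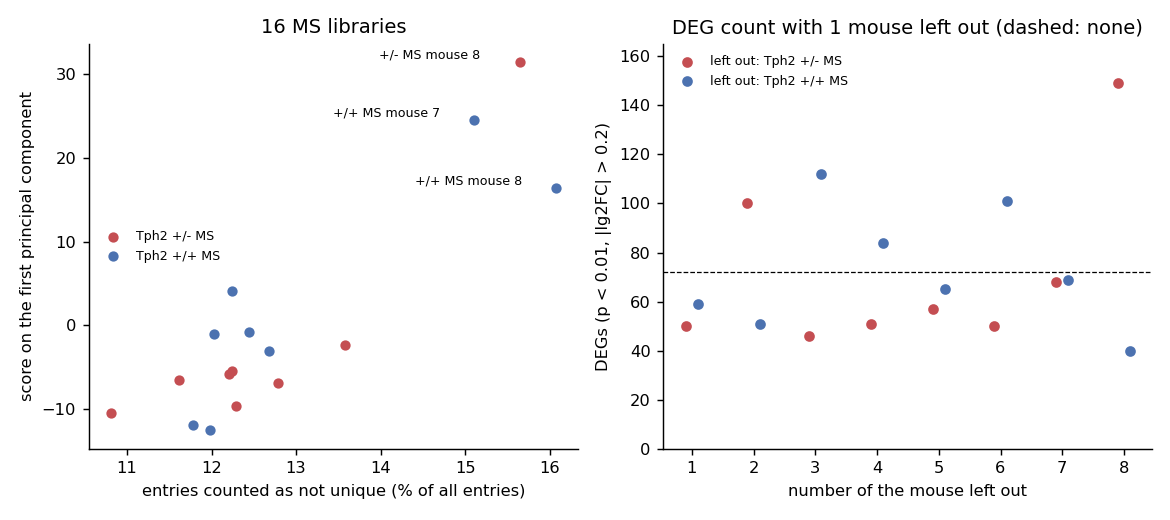
Left, score on the first principal component (y axis) against the percent of entries counted as not unique (x axis) for the 8 Tph2+/- MS (red) and 8 Tph2+/+ MS (blue) libraries. Right, number of DEGs (y axis) with 1 mouse left out (x axis), 40 to 149 against the dashed line at 72 with none left out.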

How the data were processed

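Amygdala RNA of the 16 MS mice, and of the other groups for a shared estimate of spread, was sequenced from stranded total RNA libraries as pairs of 125 bp. Per the submitters' processing notes STAR, HTSeq and DESeq2 were used on GRCm38.p5, and the authors deposited whole-number counts for each Ensembl gene that had not been normalized. The annotation and the strand setting of the counting were not given in the sources used here. Special entries (median 97.8% of all entries), Lars2 and Gm42418 were dropped, and genes with a mean of at least 10 counts over 48 samples were kept. TMM-normalized counts were fitted with 1 coefficient per group in edgeR 4.0.16 (R 4.3.3) and groups were compared by its quasi-likelihood test, with Benjamini-Hochberg adjusted p, and by DESeq2 1.42.0 as an alternative. SE are lg2FC divided by the root of F. CPM use TMM library sizes, and the floor of 3 counts, scaled to counts on genes, covers counting error only. The code was tested on simulated data. Overlaps were taken from GENCODE M21 (5621 of 5643 genes tested were found) with bedtools 2.31.1, and library measures were compared with SciPy 1.17.1. The genes named are the 10 DEGs with the smallest unadjusted p in each direction, every DEG that is on a gene list or opposite to a list gene, and Tph2 and Cck. Other genes were named after their values were seen. The comparison, the gene lists and the rules were chosen with earlier results of these data known. The same replicate numbers occur in both groups but stand for different mice, so the fit had no block.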

Additional observations from a re-analysis of the deposited data

Results flagged for a closer look

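Each value of a library or a named gene was compared with the others of its group of 8 mice, and 10 of 56 groups tested held 1 mouse far from the rest, where chance gives about 1 in 20. Of these, 4 were in Tph2+/- MS mouse 8. It had 34.0 CPM of B630019K06Rik (12.5 to 18.4 in the other 7), 113 CPM of Appbp2os (65.9 to 86.9), 97.2% of unique entries on no gene (97.4% to 97.6%) and a score of 31.4 on the first principal component (-10.4 to -2.29).

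Epha1 had 44.8 CPM in Tph2+/+ MS mouse 3 (23.4 to 30.7 in the others), Rsbn1l had 108 CPM in Tph2+/- MS mouse 6 (136 to 159) and Gm19719 had 47.5 CPM in Tph2+/- MS mouse 5 (24.6 to 35.2). Gm14205, opposite to the GABA transporter gene Slc32a1, had 419 CPM in Tph2+/+ MS mouse 8 (158 to 282), and this gene was no DEG without that mouse.

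In Tph2+/+ MS mouse 2, Lars2 and Gm42418 made 52.6% of counts on genes (3.45% to 4.97% in the others), and 95.1% of unique entries lay on no gene (97.1% to 97.6%). Both genes were left out of the fits. The causes were not tested.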

How the results depend on the processing

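The number of DEGs was 53 to 84 under every alternative but 1 that kept all mice, with 0 adjusted calls. With all 32233 genes that had a count, it was 417 with 57 adjusted calls, of which 13 were DEGs at the mean of 10 counts and 41 had an unadjusted p above 0.01 there. The same setting gave 464 DEGs (115 adjusted calls) under control rearing and 579 (179 adjusted) for the difference between rearing conditions, and the share of counts used as covariate gave 82 under control rearing. Higher and lower DEGs divided as 41 and 37 in a fit of 32 samples and as 37 and 33 with Lars2 and Gm42418 kept. They divided as 31 and 53 with the share of not unique entries as covariate. Without Tph2+/- MS mouse 8 they were 51 and 98. The causes were not tested. Leaving out 1 mouse gave 40 (without Tph2+/+ MS mouse 8) to 149 DEGs (without Tph2+/- MS mouse 8), with 112 without Tph2+/+ MS mouse 3 and 46 without Tph2+/- MS mouse 3. The difference in percent of Lars2 and Gm42418 between genotypes went from -5.97 to 0.0992 percentage points without Tph2+/+ MS mouse 2.

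A fit with the replicate block gave 73 DEGs and 0 adjusted calls. Same-numbered mice correlated at -0.28 to 0.31 in their deviations and 1 of 8 best with its own number, and they share only a number. Chosen after the data were seen, the share of not unique entries as covariate gave 84 DEGs, and leaving out the 3 libraries with the most of them gave 61. Without 2 control libraries there were 74, and 176 under control rearing. For the 22 named genes, mostly those with the smallest p, 297 of 308 values over the settings that are not leave-one-out and 336 of 352 with 1 mouse left out kept the call. Over all 72 DEGs, 13 were kept under every setting and 39 in a fit of only the 16 samples, and 0 changed sign. Low counts limit the precision of most DEGs, 39 of which had fewer than 30 counts per mouse.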
